A study of Populus tremula x Populus tremuloides with 6 samples.

Results

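The MIR164, MIR166 and MIR167 families were followed through their hairpin loci in the leaf transcriptome of hybrid poplar. Members were the loci whose deposited name gives one of the 3 families and that held at least 15 reads summed over the 6 libraries. This left 6 of the 35 loci named for these families, in files that list 37662 loci in all. They were ptc-MIR164e, ptc-MIR166c, ptc-MIR166o, ptc-MIR166n, ptc-MIR167e and ptc-MIR167f, where ptc is the microRNA registry's prefix for Populus trichocarpa.

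RNA came from leaves at plastochron positions 7 to 10 of 3 wild-type plants and 3 MYB117-overexpressing plants of Populus tremula x Populus tremuloides. All had spent 1 month in a mist chamber and then 2 months in a greenhouse. The transgenic plants were made from cut leaves of 1 clone, which received MYB117 through Agrobacterium tumefaciens in the vector pMDC32, a plasmid built for constitutive expression in plants. The labels do not say whether the transgenic plants stem from separate transformation events, so the p-values measure the spread between these plants. The level of MYB117 and markers of leaf cell types were not analysed here, because the files give gene identifiers without names.

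MicroRNAs are cut from hairpin precursors, which are themselves part of long transcripts made by the polymerase that makes messenger RNA. In Arabidopsis, miR164 directs cleavage of transcripts of NAC transcription factors such as CUC2, which set organ boundaries and leaf margin teeth. There, miR166 restricts the HD-ZIP III factors, among them REVOLUTA and PHABULOSA, which specify the upper side of the leaf and pattern vascular tissue. The third family, miR167, acts on the auxin response factors ARF6 and ARF8. Messenger RNA was enriched before sequencing, so the reads report the long precursor or a transcript that overlaps it, not the mature microRNA. The target transcripts were not analysed here.

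Most loci of these families had no counted reads in leaf. Of the 35 loci, 24 had 0 reads in all libraries and 5 had 1 to 8 reads, while the 6 members held 5274 of the 5296 reads. Reads in loci numbered 28960403 to 49442174 per library, so a count of 0 allows up to 0.0607 to 0.104 CPM (counts-per-million, with reads in loci as the base; the limit is 3 reads and covers counting error only). Reads that overlapped more than 1 locus, 10.1% to 12.5% of a library, were given to none, so a hairpin inside another locus is undercounted. Reads without a unique alignment, 2.01% to 2.47% of a library, were also given to none. Near-identical hairpin copies can lose reads this way, so a count of 0 is not proof of absence. Locus lengths are not in the files, so CPM values are compared between libraries for the same locus and not between loci. In leaf as a bulk sample, fewer cells that express a precursor and less RNA per cell cannot be told apart.

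Leaves of the MYB117 plants had lower mean levels than wild type at all 6 members, but none of the 4 tested members passed the test. The untested members, ptc-MIR166n and ptc-MIR167f, reached the read limit for members mainly through wild-type reads. In wild-type replicates 1, 2 and 3, ptc-MIR166n had 2, 7 and 4 reads and ptc-MIR167f had 31, 3 and 1. In MYB117 replicates 1, 2 and 3 they had 1, 3 and 0 and 1, 2 and 1 reads. Their lower MYB117 means thus follow partly from how members were chosen. The 4 that could be tested, ptc-MIR164e, ptc-MIR166c, ptc-MIR166o and ptc-MIR167e, had mean CPM 2.03 to 2.19 times as high in wild type. A quasi-likelihood F test (edgeR), with Benjamini-Hochberg adjustment over 26854 loci, called 0 of these 4, where 17.1% of all tested loci were called and 7.19% were called lower. An unadjusted p below 0.05 was seen at 1 of the 4, against 33.2% of tested loci. DESeq2 called 1, ptc-MIR166o, where it called 27.5% of all loci tested, and limma voom called 0, where it called 18.3%. The log2 fold changes of the 4 ran from -1.21 to -1.10, with a median of -1.17 against -0.06 over all tested loci. A log2 fold change of -1 or less was found at 12.0% of tested loci and one below 0 at 54.1%. The 4 loci come from the same 6 libraries and are not independent. Each reached the filter's level of 0.264 CPM in at least 2 libraries of each group.

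**Figure D1:**
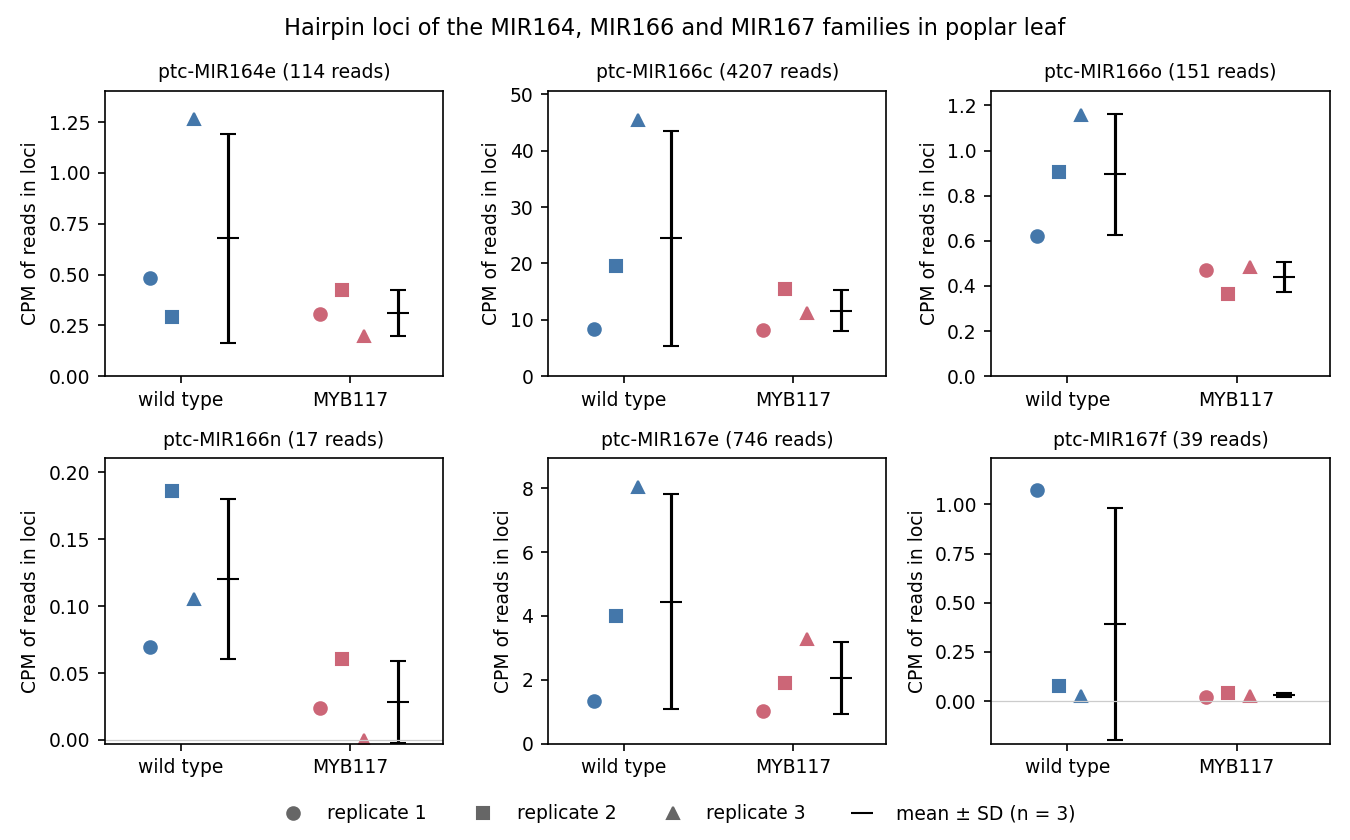
CPM of the 6 members (vertical axes, linear, a scale for each panel) in 3 wild-type and 3 MYB117 libraries, with a symbol for each replicate number and the mean ± SD (n = 3) beside each group. Wild-type replicate 3 is the highest library for ptc-MIR164e, ptc-MIR166c, ptc-MIR166o and ptc-MIR167e, whereas ptc-MIR167f has 31 of its 39 reads in wild-type replicate 1.

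The locus ptc-MIR166c supplied most of what was read from the MIR166 family, the family that restricts HD-ZIP III factors. It stood at 8.36, 19.5 and 45.5 CPM in wild-type replicates 1, 2 and 3 and at 8.16, 15.4 and 11.3 CPM in MYB117 replicates 1, 2 and 3. The groups overlapped: wild-type replicate 1 lay within the MYB117 range, and wild-type replicate 3 lay far above every other library. The means were 24.4 ± 19.04 and 11.6 ± 3.63 CPM (SD, n = 3 each). The log2 fold change was -1.14 (SE 0.55, 95% interval -2.44 to 0.16, adjusted p = 0.20, edgeR). Without wild-type replicate 3 it was -0.34 (adjusted p = 0.53, edgeR), and without wild-type replicate 1 it was -1.52 and passed the test (adjusted p = 0.049, edgeR), as 18.7% of tested loci did in that fit.

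The second member of that family, ptc-MIR166o, was the only one of the 4 tested loci whose groups did not overlap. It had 18, 34 and 44 reads in the wild-type libraries and 20, 18 and 17 reads in the MYB117 libraries. Scaled to library size, these were 0.622, 0.903 and 1.16 CPM in wild-type replicates 1, 2 and 3 and 0.472, 0.364 and 0.483 CPM in MYB117 replicates 1, 2 and 3. Every wild-type plant lay above every MYB117 plant; the groups were free of overlap, in either direction, at 38.0% of tested loci. The exact two-sided permutation p of 0.1 is the smallest that 3 against 3 can give. The means were 0.894 ± 0.268 and 0.440 ± 0.066 CPM (SD, n = 3 each). The log2 fold change was -1.10 (SE 0.37, 95% interval -1.98 to -0.22, adjusted p = 0.089, edgeR). With DESeq2 the adjusted p was 0.049, at a log2 fold change of -1.11. When wild-type replicate 3 was left out the log2 fold change was -0.89 (adjusted p = 0.20, edgeR), a smaller shift than at the other tested members.

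The third MIR166 member, ptc-MIR166n, was near the limit of detection. It had 2, 7 and 4 reads in wild-type replicates 1, 2 and 3 and 1, 3 and 0 reads in MYB117 replicates 1, 2 and 3, or 0.120 ± 0.060 and 0.028 ± 0.031 CPM (SD, n = 3 each). Its groups did not overlap in CPM, as was found in either direction at 38.0% of tested loci. It reached the read limit for members mainly through wild-type reads, so this separation follows partly from how members were chosen. The wild-type level of replicate 1, 0.069 CPM, also lay below the 0.085 CPM that the 0 reads of MYB117 replicate 3 allow. The locus did not pass the filter and was not tested.

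Summed over its 15 loci, of which 10 had 0 reads, the MIR166 family was at 9.08, 20.6 and 46.7 CPM in wild-type replicates 1, 2 and 3 and at 8.70, 15.8 and 11.8 CPM in MYB117 replicates 1, 2 and 3. The sum therefore followed ptc-MIR166c. That locus held 92.02% to 97.3% of the family's reads in every library. Its share was 96.1% of 2813 pooled reads in wild type (exact binomial 95% interval 95.3% to 96.8%) and 96.0% of 1567 pooled reads in MYB117 (94.9% to 96.9%). These intervals treat the reads of 3 plants as independent draws and leave out the spread between plants. Wild-type replicate 1, at 92.02%, lay below the interval of its group. As library means, the shares were 94.7% ± 2.64 and 95.5% ± 1.71 (n = 3 each, exact permutation p = 0.7). The log2 fold change of the sum was -1.14 (SE 0.53, adjusted p = 0.19, edgeR). Taken without ptc-MIR166c, the rest of the family had a log2 fold change of -1.11 (SE 0.35, adjusted p = 0.072, edgeR). Most of that rest was the 151 reads of ptc-MIR166o, so this value largely repeats that locus. Without wild-type replicate 1 the sum passed the test (log2 fold change -1.51, adjusted p = 0.045, edgeR). In the fit of single loci without that library 18.7% of tested loci were called, among them ptc-MIR166c, which the sum largely repeats. Without wild-type replicate 3 the sum stood at -0.37 (adjusted p = 0.47, edgeR).

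The MIR167 family, which acts on auxin response factors, was read mainly from ptc-MIR167e. This locus was at 1.35, 3.99 and 8.02 CPM in wild-type replicates 1, 2 and 3 and at 1.01, 1.90 and 3.27 CPM in MYB117 replicates 1, 2 and 3. The groups overlapped, and in each of them replicate 1 was the lowest and replicate 3 the highest. The means were 4.45 ± 3.36 and 2.06 ± 1.14 CPM (SD, n = 3 each). The log2 fold change was -1.19 (SE 0.65, 95% interval -2.73 to 0.35, adjusted p = 0.25, edgeR). It was -0.46 without wild-type replicate 3 (adjusted p = 0.61, edgeR).

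A second locus, ptc-MIR167f, was read in quantity from a single plant. Wild-type replicate 1 had 31 reads (1.07 CPM), wild-type replicates 2 and 3 had 3 and 1 reads, and the MYB117 libraries had 1, 2 and 1 reads. In wild-type replicate 1 it made up 44.3% of the family's 70 reads (exact binomial 95% interval 32.4% to 56.7%), whereas in the other libraries it made up 0.326% to 2.27%. That plant had the lowest wild-type level of ptc-MIR167e. The group means of 0.392 ± 0.588 and 0.031 ± 0.009 CPM (SD, n = 3 each) rest on that library, and the locus did not pass the filter and was not tested.

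Over its 11 loci the MIR167 family stood at 2.42, 4.17 and 8.08 CPM in wild-type replicates 1, 2 and 3 and at 1.04, 2.00 and 3.33 CPM in MYB117 replicates 1, 2 and 3. Wild-type replicate 1 lay between MYB117 replicates 2 and 3, so the groups overlapped. The log2 fold change of the sum was -1.30 (SE 0.53, 95% interval -2.56 to -0.03, adjusted p = 0.14, edgeR). It was -0.75 without wild-type replicate 3 (adjusted p = 0.33, edgeR). With the replicate number as a block it was -1.27 and passed the test (adjusted p = 0.031, edgeR). With that block 17.3% of tested loci were called, and the labels do not say that the numbers pair plants.

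For the MIR164 family, which acts on NAC factors of organ boundaries, ptc-MIR164e was the 1 member. It had 14, 11 and 48 reads in wild-type replicates 1, 2 and 3 and 13, 21 and 7 reads in MYB117 replicates 1, 2 and 3. These were 0.483, 0.292 and 1.26 CPM in wild type and 0.307, 0.425 and 0.199 CPM in MYB117. Apart from wild-type replicate 3, the libraries of the groups were interleaved. The means were 0.679 ± 0.514 and 0.310 ± 0.113 CPM (SD, n = 3 each), with a log2 fold change of -1.21 (SE 0.64, 95% interval -2.73 to 0.32, adjusted p = 0.24, edgeR). Without wild-type replicate 3 it was -0.44 (adjusted p = 0.64, edgeR).

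Besides it, a locus named ptc-MIR164b had 0 reads in all libraries. Another locus of that name had 4, 2 and 2 reads in wild-type replicates 1, 2 and 3 and 0 reads in each MYB117 library. With 8 reads it is the locus nearest below the limit of 15, as ptc-MIR166n with 17 is the nearest above it. Its wild-type levels of 0.138, 0.053 and 0.053 CPM compare with 0.061 to 0.085 CPM that the 0 counts of the MYB117 libraries allow. Wild-type replicate 1 lay above these limits and the other wild-type libraries lay below them, and the locus was not tested. The family sum had a log2 fold change of -1.37 (SE 0.60, 95% interval -2.81 to 0.07, adjusted p = 0.17, edgeR), and -0.77 without wild-type replicate 3 (adjusted p = 0.41, edgeR). The remaining locus with at least 5 reads, bna-MIR167d, had 6 reads, 3 of them in each group.

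**Figure D2:**
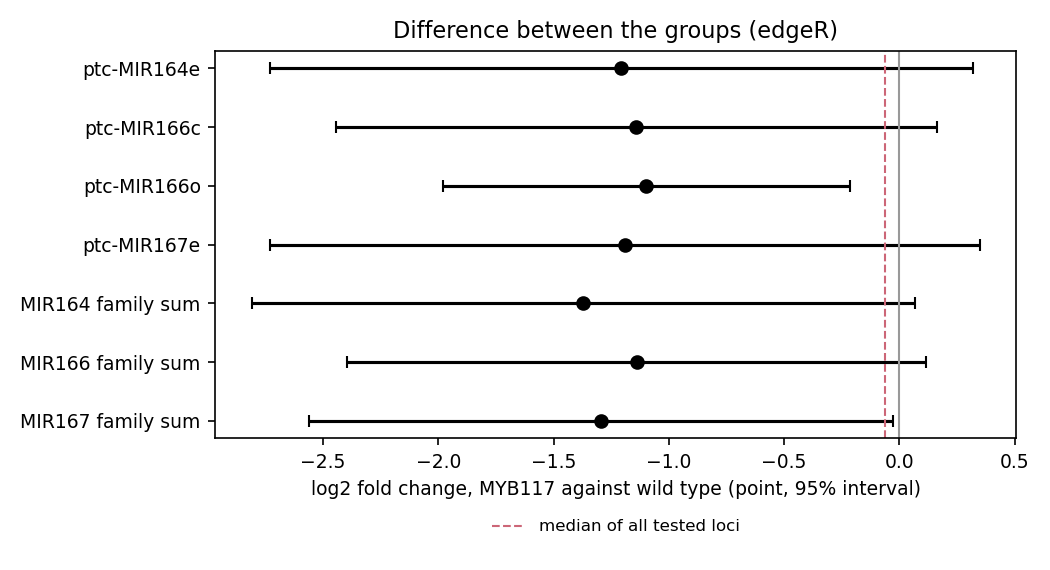
Log2 fold change, MYB117 against wild type (horizontal axis), of the 4 tested members and the 3 family sums, as the edgeR estimate (point) with its 95% interval (bar); the dashed line is the median of all tested loci, -0.06. The estimates lie between -1.37 and -1.10, and only the intervals of ptc-MIR166o and of the MIR167 sum end below 0.

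The size of the difference turned on wild-type replicate 3 at 3 of the 4 tested members. Leaving that library out took the log2 fold changes of ptc-MIR164e, ptc-MIR166c and ptc-MIR167e to between -0.46 and -0.34, and that of ptc-MIR166o to -0.89. Leaving out any other library left all 4 between -1.65 and -0.88. No member had a fold change above 0 in any of these fits.

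**Figure D3:**
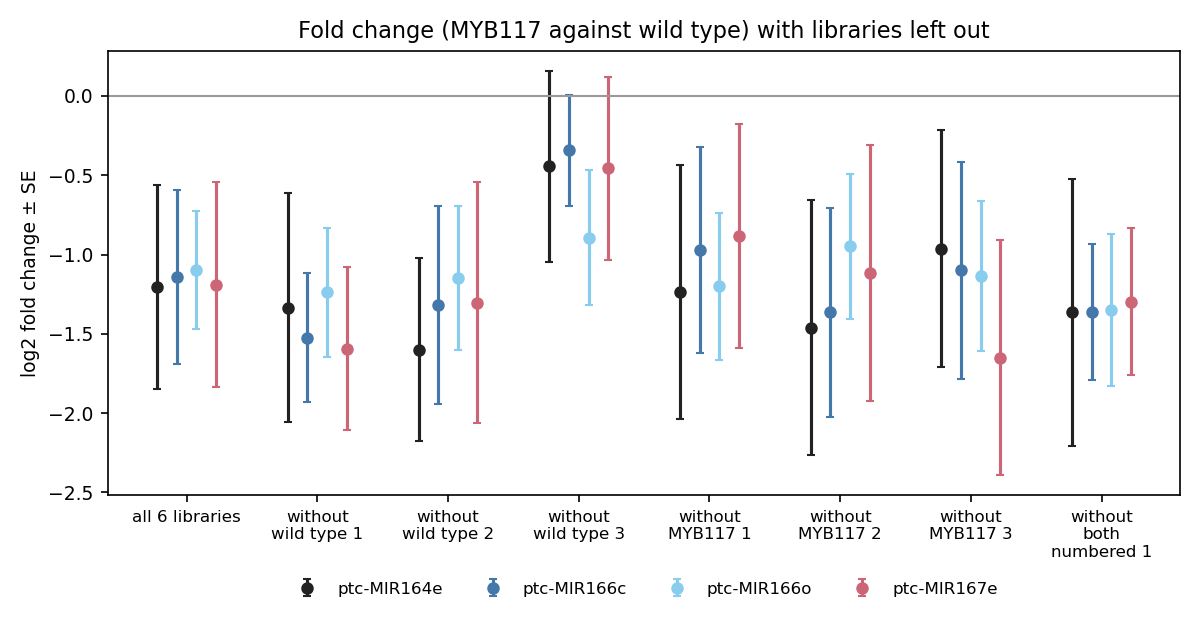
Log2 fold change ± SE (vertical axis) of the 4 tested members with all 6 libraries, with each library left out in turn, and without both libraries numbered 1. Without wild-type replicate 3 the points of ptc-MIR164e, ptc-MIR166c and ptc-MIR167e move to between -0.46 and -0.34, while ptc-MIR166o stays at -0.89.

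Wild-type plants differed among themselves more at these hairpins than at most loci. The highest wild-type library was 5.96 times the lowest at ptc-MIR167e, 5.44 times at ptc-MIR166c and 4.32 times at ptc-MIR164e, against a median of 1.66 times over tested loci. These 3 ratios exceeded those of 93.7%, 92.7% and 89.7% of tested loci. At ptc-MIR166o the ratio was 1.86, above 59.2% of tested loci. The ratio also grows with counting error, and ptc-MIR164e had only 11 reads in its lowest wild-type library. Among the MYB117 plants the ratios were 3.23 at ptc-MIR167e, 1.89 at ptc-MIR166c, 2.13 at ptc-MIR164e and 1.33 at ptc-MIR166o, with a median of 1.44 over tested loci. At ptc-MIR166c, ptc-MIR166o and ptc-MIR167e replicate 1 was the lowest and replicate 3 the highest wild-type library, as at 27.4% of tested loci. In these CPM values, not TMM-scaled, replicate 1 was the lowest wild-type library at 57.2% of tested loci and replicate 3 the highest at 32.0%.

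**Figure D4:**
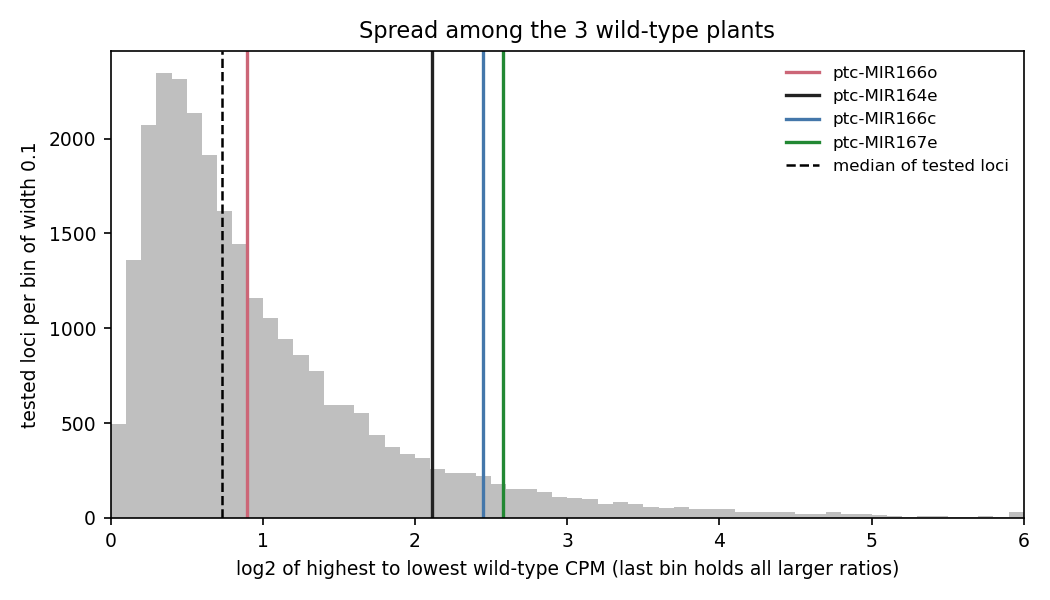
Number of tested loci (vertical axis) by the log2 of the ratio of the highest to the lowest wild-type CPM (horizontal axis, bins of 0.1), for the 26455 tested loci with reads in every wild-type library. Solid lines mark ptc-MIR166o at a ratio of 1.86, ptc-MIR164e at 4.32, ptc-MIR166c at 5.44 and ptc-MIR167e at 5.96, and the dashed line marks the median of 1.66.

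Across the 6 plants ptc-MIR166c and ptc-MIR167e, hairpins of different families, had similar profiles. Within a library ptc-MIR166c had 6.21, 4.89 and 5.67 times the reads of ptc-MIR167e in wild-type replicates 1, 2 and 3 and 8.05, 8.10 and 3.45 times in MYB117 replicates 1, 2 and 3. This ratio ranged 2.35-fold, whereas the CPM values of the loci themselves ranged 5.57-fold and 7.91-fold. The ratios of ptc-MIR166c to ptc-MIR166o and to ptc-MIR164e ranged 3.14-fold and 3.85-fold, also less than ptc-MIR166c itself. The ratio of ptc-MIR166c to ptc-MIR167e did not differ between the groups beyond their spread, at 5.59 ± 0.66 and 6.53 ± 2.67 (SD, n = 3 each). The exact permutation test, on log2 ratios, gave p = 0.8. The log2 CPM values correlated at a Pearson r of 0.91 (exact permutation p = 0.013, 0.075 adjusted over the 6 pairs of tested members) and a Spearman rho of 0.94 (exact permutation p = 0.017, 0.10 adjusted). The correlation therefore failed the correction. Without wild-type replicate 3 and MYB117 replicate 1, the libraries farthest from the median of ptc-MIR166c, r was 0.69 over 4 libraries. After subtraction of the group means r was 0.88. The other 5 pairs had r of 0.46 to 0.74, with adjusted exact permutation p of 0.20 to 0.37.

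**Figure D5:**
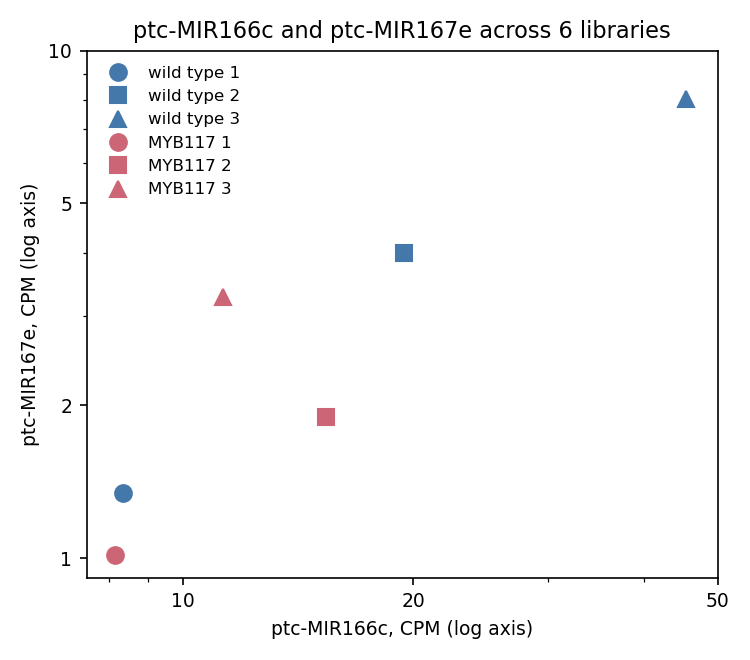
CPM of ptc-MIR167e (vertical axis, log scale) against CPM of ptc-MIR166c (horizontal axis, log scale) in each of the 6 libraries. Replicate 1 of each group has the lowest values at both loci and wild-type replicate 3 the highest, at 45.5 and 8.02 CPM.

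Loci of similar profile were sought among 13110 loci with a gene identifier and a mean of at least 10 TMM-scaled CPM. The r values here are from log2 TMM-scaled CPM with a prior count of 2. Those between members are from unscaled log2 CPM, so the r values are not the same measure. The locus most like ptc-MIR166c over the 6 libraries was Potra181537g28161 (Pearson r 0.996). That locus was at 49.5 ± 41.6 CPM in wild type and 18.9 ± 7.59 CPM in MYB117 (SD, n = 3 each). It was not called (log2 fold change -1.46, adjusted p = 0.15, edgeR). Its wild-type mean leaned on replicate 3, at 95.5 CPM against 14.7 and 38.2 CPM in replicates 1 and 2. The nearest to ptc-MIR167e was Potra001632g13416 (r = 0.979), to ptc-MIR164e Potra194552g31515 (r = 0.992) and to ptc-MIR166o Potra000431g02287 (r = 0.985). The files give no names for these 4 loci. With each member, 17 to 62 of the candidates reached an r of 0.95. Each nearest locus has the highest r of 13110 candidates over only 6 libraries, so its high r follows partly from the search. Whether these r values exceed what a search of this size gives for unrelated loci was not tested.

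Hairpins of other families that act in leaf development served for comparison. The list named MIR156, MIR159, MIR160, MIR165, MIR171, MIR172, MIR319, MIR390, MIR393, MIR394 and MIR396. MIR165 had no locus, and only MIR156, MIR159, MIR160, MIR172 and MIR393 had loci that passed the filter. In all, 8 of the 73 loci in the list were tested. None was called by edgeR, DESeq2 or limma voom, where 17.1%, 27.5% and 18.3% of all tested loci were called, and none had an unadjusted p below 0.05 (edgeR), where 33.2% of tested loci did. Their log2 fold changes ran from -0.32 to 0.65 with a median of -0.12. As an example, ptc-MIR160h, of a family that in Arabidopsis targets the auxin response factor ARF10 and its relatives, was at 9.28 ± 3.89 CPM in wild type and 8.67 ± 2.90 CPM in MYB117 (SD, n = 3 each, log2 fold change -0.18, adjusted p = 0.74, edgeR). The locus mes-MIR393d, of a family that targets auxin receptors, was at 1.17 ± 0.66 and 1.82 ± 0.44 CPM (log2 fold change 0.57, adjusted p = 0.42, edgeR). The difference between this list and the members was not tested.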

How the data were processed

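The authors deposited raw read counts per locus, 1 file per library, with no normalization, per the file contents. The submitters' processing notes list HISAT2 2.1.0, HTSeq 0.6.1 and Cufflinks. The sources used here do not give build, annotation or strand setting, so reads of near-identical hairpin copies and of antisense transcripts are uncertain. The last 5 rows of each file, which hold 27.0% to 29.6% of its reads, were left out. From these counts, CPM was computed over the reads in loci. Groups were compared over all 6 libraries with edgeR 4.0.16 (R 4.3.3): TMM scaling, expression filter (minimum count 10, total 15), no covariate, calls at an adjusted p below 0.05. The SE is the log2 fold change divided by the square root of F. For family sums, the loci of the 3 families were replaced by their sums and the whole table was refitted (26853 rows). Single values were compared by exact two-sided permutation tests. DESeq2 1.42.0, limma 3.58.1 voom, other scalings, filters, thinned counts, left-out libraries and a replicate block were alternatives. Members and lists were chosen with earlier results of these data known, and shares, ratios, spreads and correlations after values were seen. Named loci are all members, family loci with at least 5 reads and the locus most like each tested member. Loci of the other leaf development families that are named were chosen after their values were seen.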

Additional observations from a re-analysis of the deposited data

How the results depend on the processing

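The log2 fold changes of the 4 tested members and the 3 family sums kept their sign under every alternative that gave a value. Settings that moved a value over the threshold were DESeq2 for ptc-MIR166o (-1.11, adjusted p = 0.049), the fit without wild-type replicate 1 for ptc-MIR166c (-1.52, adjusted p = 0.049) and the MIR166 sum (-1.51, adjusted p = 0.045), and the replicate block for the MIR167 sum (-1.27, adjusted p = 0.031); the cause was not tested. Replicate numbers were not taken to pair plants, since the labels do not say that they do. Deviations of same-numbered libraries correlated at 0.37, 0.18 and 0.04, and those of differently numbered libraries at -0.41 to 0.39. The highest was wild-type replicate 3 with MYB117 replicate 2. With 3 plants per group, these values cannot decide whether the numbers pair plants. With the replicate block, 0 members and 4637 of all loci (17.3% of those tested) were called. The number of members called was 1 with DESeq2 and 0 to 1 with a library left out. With a library left out, log2 fold changes ran from -1.60 to -0.44 at ptc-MIR164e, -1.52 to -0.34 at ptc-MIR166c, -1.24 to -0.89 at ptc-MIR166o and -1.65 to -0.46 at ptc-MIR167e, and those of the sums from -1.75 to -0.77 (MIR164), -1.51 to -0.37 (MIR166) and -1.74 to -0.75 (MIR167). Over all loci 4599 were called (17.1% of those tested), against 7392 with DESeq2 (27.5%) and 1552 to 5112 with a library left out (5.69% to 18.7%). In the other leaf development list, 0 to 1 was called with a library left out: ptc-MIR156j, at 1.54 without wild-type replicate 1 (adjusted p = 0.047). Signs in that list turned with a library left out at egu-MIR172d (-0.32 to 0.15), ptc-MIR160h (-0.44 to 0.15), ptc-MIR156c (-0.66 to 0.066) and ptc-MIR156e (-0.26 to 0.54). They also turned without both libraries numbered 1 at egu-MIR172d (0.11), and with thinned counts (-0.051) or upper-quartile scaling (-0.0041) at ptc-MIR156e, which was at 0.0069 before. With at least 1 CPM in 3 libraries, ptc-MIR164e, ptc-MIR166o and the MIR164 sum gave no value, nor did the MIR164 and MIR167 sums without their most abundant locus. Depth limits ptc-MIR166n, ptc-MIR167f and ptc-MIR164b, with 8 to 39 reads in all.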
